A study of Mus musculus with 12 samples.

Results

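The genes described here are the 10 that encode the NF-κB transcription factor subunits and a set of their inhibitors. They are 5 subunits (*Nfkb1*, *Nfkb2*, *Rel*, *Rela* and *Relb*) and 5 inhibitors (*Nfkbia*, *Nfkbib*, *Nfkbie*, *Nfkbiz* and *Tnfaip3*), taken by symbol from a table of 41444 mouse genes. Each of the 10 symbols matched 1 gene, and all 10 had a mean level above the limit used for testing. The cells were pre-B cells from the bone marrow of *Ctnnb1* fl/fl mice, expanded with IL-7, transformed by retroviral *BCR-ABL1* into a model of B cell acute lymphoblastic leukemia (B-ALL) and then grown without IL-7. A pair of groups with 3 libraries each was compared, out of 12 samples in the series. The control group (ERT2) carried the ERT2 vector without Cre, so that the floxed gene for β-catenin stayed intact, and received 1 µM 4-OHT for 2 days. The treated group (ERT2_Ly) carried the same vector and received the same 4-OHT together with 40 nM LY2090314, a small-molecule inhibitor of the kinase GSK3β, for 1 day by the sample labels (a figure legend of the study gives a shorter exposure). The age of the mice is not given in the sources used here. The Cre-ERT2 samples, in which β-catenin is deleted, are not analysed here, so these values do not separate effects of LY2090314 that need β-catenin from those that do not.

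NF-κB factors are dimers of Rel-homology proteins. *Rela*, *Rel* and *Relb* encode subunits with transactivation domains, whereas *Nfkb1* and *Nfkb2* encode the precursors p105 and p100, which are processed to the DNA-binding subunits p50 and p52. IκB proteins hold the dimers in the cytoplasm until the IKK kinases phosphorylate them and β-TrCP, the same ubiquitin ligase adaptor that recognizes phosphorylated β-catenin, marks them for the proteasome. Several inhibitors are themselves targets of NF-κB and close a negative feedback loop. In B cells the factors act downstream of the antigen receptor, Toll-like receptors and the BAFF receptor, and the κB motif takes its name from the enhancer of the immunoglobulin κ light chain. GSK3β has a known link to this pathway, since embryos without it die of liver cell apoptosis with impaired NF-κB function.

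Expression is given as the regularized log2 (rlog) value that the authors deposited, a read count scaled for library size on a log2 scale. A value under 0 lies below 1 scaled read, a gene listed at 0 in every library has no spread, and the transformation shrinks genes of low read number, which understates how much they differ. The depth of the libraries is unknown, since the table holds no counts. A figure legend of the study describes the replicates as mice. The treated libraries 14A and 14B share a library number, and whether these came from separate mice is not clear from the labels. The SD of the difference between 2 libraries across the 11536 genes tested was 0.186 for this pair and 0.253 for each of them against library 15. Among control libraries it lay between 0.185 and 0.239, and between the groups it was at least 0.581. The B-lineage identity of the cells was checked with 12 markers fixed for this purpose, all of which were above the limit for testing. *Cd79a*, a signalling chain of the B cell receptor, had a mean rlog value of 14.04 in control and 14.28 in treated cells. It was the 1 marker of the 12 that did not pass the test (adjusted p = 0.053, limma). With LY2090314, 9 of the 12 markers were lower and 2 were higher, against 25.3% and 24.8% of all genes tested. The log2 differences of the 12 markers ranged from −1.93 (*Rag1*) to 0.64 (*Dntt*) with a median of −0.69. *Pax5* was at −1.54 and *Cd79b* at −0.94. The sum of the linear values of the 12 markers went from a range of 87262 to 88609 in control libraries to one of 60857 to 67382 in treated libraries. Markers of other cell types were mostly under the limit, with 1 of 7 T cell, 1 of 9 myeloid, 1 of 6 stromal or endothelial and 0 of 6 erythroid or megakaryocyte markers tested. The 3 that were tested were higher with LY2090314 in mean rlog value, *Cd5* (5.24 to 6.94), *Lyz2* (5.80 to 6.34) and *Pecam1* (10.51 to 11.72). The summed linear values were 40.9 to 46.1 in control and 123.0 to 132.4 in treated libraries for T cell markers, 60.2 to 68.8 and 87.1 to 94.2 for myeloid markers, 1418 to 1499 and 3128 to 3511 for stromal or endothelial markers and 9.68 to 9.98 and 9.42 to 9.63 for erythroid or megakaryocyte markers. The T cell, myeloid and stromal or endothelial sums each came mainly from the 1 tested gene of the list. The next highest treated means in these lists were 1.88 (*Trac*), 1.45 (*Itgam*) and 1.43 (*Cdh5*). Rises in these sums therefore do not show a rise of whole marker sets. Of the defining markers, *Adgre1*, *Mpo* and *Col1a2* were listed at 0 in all 6 libraries, and *Cd3e* had a mean of −2.28 in both groups. The part of these markers in the results was not tested. In bulk RNA, fewer cells of one kind and less RNA per cell cannot be told apart.

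Because feedback onto their own genes is a known property of these factors, the promoters of the 10 genes were searched for the κB motif. Windows from 250 bases before to 50 bases after an annotated start were given for 7 of the genes, in 10 windows (RefSeq, GRCm38.p6), with *Tnfaip3* and *Nfkb2* having more than 1 start. *Nfkb1*, *Relb* and *Nfkbiz* had none. The κB consensus was searched on either strand as GGGRNNYYCC, with R for A or G, Y for C or T and N for any base. It was found in 7 of the 10 windows, against 8.46% of all 32851 windows of this length. The motif was in 5 of the 7 genes, a count for which the share over windows is no background. The sequences that hold it are shown here for the 5 genes, in order of the size of their difference with LY2090314, with the matches in capitals, 5′ to 3′ on the strand of the gene and leaving out bases that GENCODE annotates as untranslated exon, except for the 30 bases of *Nfkb2*.
Tnfaip3: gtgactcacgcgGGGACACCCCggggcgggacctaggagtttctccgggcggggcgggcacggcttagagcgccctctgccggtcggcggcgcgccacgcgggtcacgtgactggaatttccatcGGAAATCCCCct
Nfkbie: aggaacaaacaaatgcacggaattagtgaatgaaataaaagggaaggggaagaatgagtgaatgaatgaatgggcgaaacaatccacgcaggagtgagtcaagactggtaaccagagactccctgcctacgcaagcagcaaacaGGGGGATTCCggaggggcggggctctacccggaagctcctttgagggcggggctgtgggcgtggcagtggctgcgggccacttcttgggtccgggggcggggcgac
Nfkb2: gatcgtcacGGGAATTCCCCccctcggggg
Nfkbia: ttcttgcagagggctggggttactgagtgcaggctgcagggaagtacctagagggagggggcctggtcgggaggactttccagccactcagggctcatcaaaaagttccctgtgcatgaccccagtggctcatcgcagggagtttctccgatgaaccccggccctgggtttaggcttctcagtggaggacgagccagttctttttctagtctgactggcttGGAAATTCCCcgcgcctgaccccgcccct
Rel: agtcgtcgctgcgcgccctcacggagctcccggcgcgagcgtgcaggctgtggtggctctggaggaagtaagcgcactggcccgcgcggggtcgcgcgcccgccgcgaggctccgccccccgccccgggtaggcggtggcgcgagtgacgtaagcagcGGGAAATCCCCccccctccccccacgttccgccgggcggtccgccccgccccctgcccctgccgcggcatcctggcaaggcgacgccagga
The stretch of *Tnfaip3* is chr10:19015411-19015547 on the minus strand, and its 2 matches lie at −125 to −116 and −12 to −3 from the start. That of *Nfkbie* is chr17:45555450-45555699 on the plus strand, with a match at −106 to −97. The 30 bases of *Nfkb2* are chr19:46304689-46304718 on the plus strand, within a first exon of another annotated transcript, and hold 2 overlapping matches from −39 to −29. That start of *Nfkb2* has a further match at −11 to −2, its second start has matches at −236 to −227 and 11 to 20, and the third window holds the latter site again. The stretch of *Nfkbia* is chr12:55492648-55492897 on the minus strand, with a match at −29 to −20, and that of *Rel* is chr11:23770971-23771219 on the minus strand, with 2 overlapping matches from −92 to −82. No match was found in the windows of *Rela*, of *Nfkbib* and of the second start of *Tnfaip3*. The core of the TCF/LEF motif, CTTTGA, was found only in *Nfkbie* among these windows, at −68 to −63, against 16% of all windows. The E-box CACGTG was found only at the first start of *Tnfaip3*, at −33 to −28, against 7.15% of all windows. The G and C content of the 250 bases before the start ranged from 46.4% at the second start of *Tnfaip3* to 77.6% at *Rel*, and the motif counts were not adjusted for it. A match describes letters only, and binding was not measured here.

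**Figure D1:**
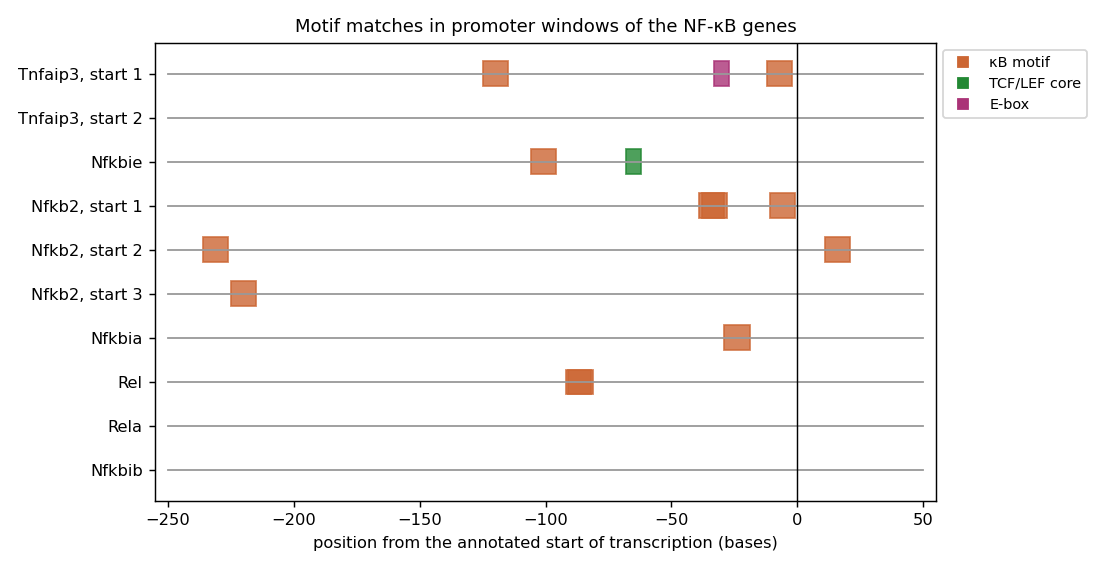
Positions of motif matches, in bases from the annotated start of transcription (0 on the horizontal axis), in the 10 RefSeq promoter windows of 7 NF-κB genes. Each line is a window and each box a match on either strand; κB matches lie in 7 of the 10 windows, and the TCF/LEF core and the E-box each lie in 1.

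With LY2090314, 4 of the 5 inhibitor genes and 1 of the 5 subunit genes were higher. Of the inhibitors, *Tnfaip3*, *Nfkbie*, *Nfkbia* and *Nfkbiz* were higher in treated cells and *Nfkbib* did not pass the test. Of the 5 subunits, *Nfkb2* was higher, *Nfkb1* was lower and the other 3 did not pass. In all, 6 of the 10 genes passed an adjusted p of 0.05 (limma on the rlog values, Benjamini-Hochberg adjustment over the 11536 genes tested), against 50.1% of all genes tested. Split by direction, 5 of the 10 were higher, against 24.8% of all genes, and 1 was lower, against 25.3%. The 3 treated libraries did not overlap with the 3 control libraries in 7 of the 10 genes, against 58.6% of all genes. The median log2 difference was 0.68 for the inhibitors and 0.17 for the subunits, against 0.01 for all genes tested. The count of 6 was not stable, and without any one of the control libraries 1 and 2 and the treated libraries 14A and 14B it fell to 3 (*Tnfaip3*, *Nfkbie* and *Nfkbia*). Without control library 3 it was 7.

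**Figure D2:**
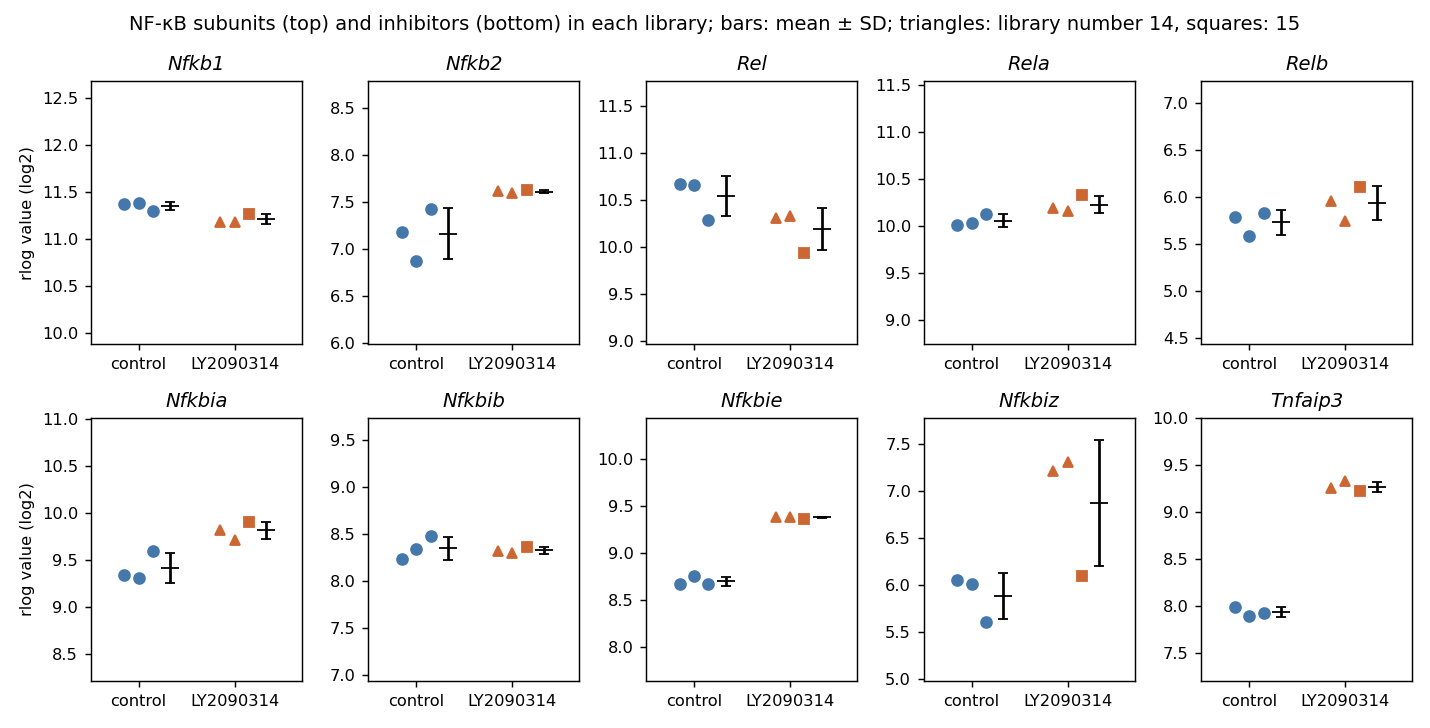
The rlog values (log2 scale, vertical axis) of the 5 subunits (top) and 5 inhibitors (bottom) in the 3 control libraries (circles) and the 3 treated libraries (triangles for 14A and 14B, squares for 15), with the mean and SD of each group beside them. Every panel spans the same number of log2 units; *Tnfaip3* and *Nfkbie* show the widest gaps between groups, and treated library 15 lies near the control libraries for *Nfkbiz*.

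*Tnfaip3* encodes A20, a ubiquitin-editing enzyme that shuts down signalling to IKK, and showed the largest difference of the 10. Its gene (ENSMUSG00000019850) lies on chromosome 10 of GRCm38, from 19000910 to 19015657 on the minus strand. The rlog values were 7.99, 7.89 and 7.93 in control libraries 1, 2 and 3, and 9.26, 9.33 and 9.22 in treated libraries 14A, 14B and 15. The 3 libraries of each group lay close together, and the groups were separated by a gap of 1.23. Means were 7.94 ± 0.049 and 9.27 ± 0.054 (SD, n = 3 in each group). This was a log2 difference of 1.33 with a standard error of 0.065 (limma, adjusted p = 2.4e-06) or a 2.52-fold higher linear level. It ranked number 394 of the 11536 genes tested by the size of the difference. The call held in all 16 alternative settings, with differences between 1.27 and 1.36.

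*Nfkbie* encodes IκBε, an IκB protein that retains dimers containing RelA and c-Rel and whose loss is known from B cell malignancies. Its gene (ENSMUSG00000023947) lies on chromosome 17, from 45555703 to 45563169 on the plus strand. Values were 8.67, 8.75 and 8.67 in the control libraries and 9.38, 9.38 and 9.36 in the treated libraries. It was the most uniform of the 10 genes within groups, with a pooled SD of 0.033 against a median of 0.097 over all genes tested, and the gap between groups was 0.61. The group means were 8.69 ± 0.046 and 9.37 ± 0.0098 (SD, n = 3 per group), which gives a log2 difference of 0.68 with a standard error of 0.056 (limma, adjusted p = 4.2e-05) or a 1.60-fold higher linear level.

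*Nfkbia* encodes IκBα, the classical inhibitor that is degraded and resynthesized in each round of activation. Its gene (ENSMUSG00000021025) lies on chromosome 12, from 55489410 to 55492647 on the minus strand. Control libraries were at 9.34, 9.31 and 9.60 and treated libraries at 9.82, 9.72 and 9.91. Control library 3 was the highest of its group and came within 0.13 of the lowest treated library. The log2 difference was 0.40 with a standard error of 0.090 (limma, adjusted p = 0.0070), a 1.32-fold higher linear level. It passed the threshold with each library left out in turn, with an adjusted p of up to 0.030 (limma).

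*Nfkbiz* encodes IκBζ, a nuclear protein of the IκB family that acts as a cofactor of NF-κB at secondary response genes more than as a cytoplasmic inhibitor. Its gene (ENSMUSG00000035356) lies on chromosome 16, from 55811375 to 55838899 on the minus strand. Control libraries were at 6.05, 6.01 and 5.61. Treated libraries 14A and 14B were at 7.21 and 7.31, whereas library 15 was at 6.10, only 0.053 above the highest control library. The SD of the treated group was 0.67, and the pooled SD of *Nfkbiz* stood at the 99.0th percentile of all genes tested. The log2 difference was 0.98 with a standard error of 0.31 (limma, adjusted p = 0.029). The call was lost without control library 1 (adjusted p = 0.052, limma), 2 (0.057) or 3 (0.092), and without treated library 14A (0.094) or 14B (0.088). Without library 15 the difference was 1.37 (adjusted p = 0.00031, limma), and with 14A and 14B averaged as 1 sample it was 0.79 (adjusted p = 0.091, limma).

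*Nfkbib* encodes IκBβ, a slower-responding IκB protein, from a gene (ENSMUSG00000030595) on chromosome 7, from 28758251 to 28767512 on the minus strand. Control libraries were at 8.24, 8.34 and 8.48 and treated libraries at 8.32, 8.30 and 8.37, so that the treated values lay inside the control range. The log2 difference was −0.02 (adjusted p = 0.83, limma), with a 95% interval from −0.21 to 0.16. It changed sign without control library 3 (0.04). An exon of *Nfkbib* shares 42 bases with *Sirt2* on the other strand, which had a log2 difference of 0.29 (limma, adjusted p = 0.014, and 0.056 without control library 2), and 314 bases with *Ccer2*, which was listed at 0. The setting for strand in the quantification is not given in the sources used here.

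Among the subunits, *Nfkb2* rose. Its gene (ENSMUSG00000025225) lies on chromosome 19, from 46304320 to 46312385 on the plus strand. Control libraries were at 7.19, 6.88 and 7.43 and treated libraries at 7.62, 7.60 and 7.63. The treated libraries were nearly the same, whereas the control libraries spread over more than the gap of 0.17 between the groups. The log2 difference was 0.45 with a standard error of 0.13 (limma, adjusted p = 0.025), a 1.36-fold higher linear level. The call was lost without control library 1 (adjusted p = 0.057, limma) or 2 (0.058) and without treated library 14A (0.064) or 14B (0.057). Without control library 2 the difference was 0.31. *Nfkb2* shares 531 exon bases with the noncoding gene AC114539.1 on the other strand, for which no value was used here, and 299 with *Psd* on that strand, which was listed at 0.

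*Nfkb1* was slightly lower. Its gene (ENSMUSG00000028163) lies on chromosome 3, from 135584655 to 135691547 on the minus strand. Control libraries were at 11.37, 11.38 and 11.30 and treated libraries at 11.18, 11.18 and 11.27. The groups were 0.034 apart at their nearest values. The log2 difference was −0.14 with a standard error of 0.049 (limma, adjusted p = 0.041), and its size stood at the 31.9th percentile of all genes tested. The call was lost without control library 1 (adjusted p = 0.11, limma) or 2 (0.14), without treated library 14A (0.12) or 14B (0.14), and in a fit without the mean-variance trend (0.080).

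*Rela* (ENSMUSG00000024927, chromosome 19, 5637483 to 5648130, plus strand), which encodes the p65 subunit of the classical dimer, was at 10.01, 10.03 and 10.13 in the control libraries and at 10.19, 10.16 and 10.33 in the treated libraries. The groups did not overlap, but the log2 difference of 0.17 missed the threshold (limma, adjusted p = 0.057), with a 95% interval from 0.02 to 0.32 before adjustment. Without control library 3 it was 0.21 and passed (adjusted p = 0.042, limma). *Rel* (ENSMUSG00000020275, chromosome 11, 23736847 to 23770970, minus strand) encodes c-Rel, the subunit most characteristic of lymphoid cells. Its values were 10.67, 10.66 and 10.29 in the control libraries and 10.31, 10.33 and 9.94 in the treated libraries. Control library 3 lay below 2 of the treated libraries, and library 15 was the lowest of all 6. The log2 difference of −0.35 did not pass (adjusted p = 0.063, limma), with a 95% interval from −0.66 to −0.04. It passed without control library 3 (−0.47, adjusted p = 0.019, limma) and with the libraries centred on their median (−0.37, adjusted p = 0.041, limma). Without treated library 15 it shrank to −0.22 (adjusted p = 0.14, limma), and without control library 1 or 2 it was −0.28 or −0.29 (adjusted p = 0.17 and 0.18, limma). *Relb* (ENSMUSG00000002983, chromosome 7, 19606217 to 19629438, minus strand), the partner of p52 in the non-canonical pathway, was at 5.78, 5.58 and 5.83 against 5.95, 5.74 and 6.10, with overlapping groups and a log2 difference of 0.20 (adjusted p = 0.20, limma; 95% interval −0.08 to 0.48). That difference was 0.12 without treated library 15 and 0.13 without control library 2. An exact two-sided permutation test over the 6 libraries gave p = 0.10 for the 7 genes whose groups did not overlap, which is the smallest p that 3 against 3 libraries allow, 0.30 for *Rel* and *Relb* and 0.80 for *Nfkbib*.

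**Figure D3:**
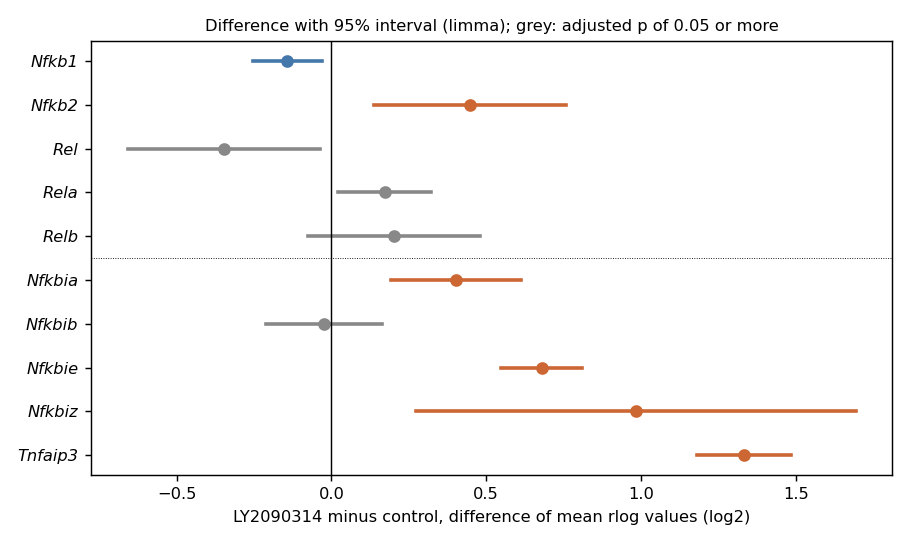
Differences of mean rlog values (LY2090314 minus control, log2, horizontal axis) of the 10 genes, with 95% intervals from limma before adjustment; orange is higher, blue is lower and grey is an adjusted p of 0.05 or more. Intervals of *Tnfaip3* and *Nfkbie* lie farthest from 0 and that of *Nfkbiz*, from 0.27 to 1.69, is the widest.

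Within each library, the mean rlog value of the 5 inhibitors minus that of the 5 subunits was taken as a description of their balance. No test is given, since the genes were chosen with results known. The rlog values are not adjusted for gene length, so the sign of such a difference does not say which genes are more abundant. Only the shift between the groups is read here. It was −0.95, −0.85 and −0.94 in the control libraries and −0.25, −0.19 and −0.46 in the treated libraries, and the groups did not overlap. The shift was 0.61 on the log2 scale. Without *Nfkbiz* and *Tnfaip3*, leaving the 3 classical IκB genes, it was 0.29, from −0.15 ± 0.094 to 0.14 ± 0.020 (SD, n = 3 each). Single pairs of genes shifted to unequal degrees. The rlog value of *Nfkbie* minus that of *Rel* went from −1.84 ± 0.20 to −0.82 ± 0.21 (SD, n = 3 each). *Nfkbia* minus *Rela* went from −0.64 ± 0.096 to −0.41 ± 0.033, and *Nfkb2* minus *Nfkb1* from −4.18 ± 0.31 to −3.59 ± 0.038. *Relb* minus *Rela* was −4.33 ± 0.12 in control and −4.30 ± 0.10 in treated cells, a shift of 0.03 that is smaller than the spread in either group.

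The levels of the 10 genes were set side by side per kilobase of annotated exon sequence, as the mean rlog value minus the log2 of the length in kilobases. In control cells *Nfkbia* was highest at 8.73 on this per-length scale, followed by *Rela* at 8.44, *Nfkb1* at 7.76, *Rel* at 7.64, *Nfkbib* at 7.24, *Nfkbie* at 7.09, *Tnfaip3* at 5.08, *Nfkb2* at 4.97, *Relb* at 3.77 and *Nfkbiz* at 3.56. Overlapping libraries were seen between neighbours for *Nfkb1* and *Rel*, *Nfkbib* and *Nfkbie*, *Tnfaip3* and *Nfkb2*, and *Relb* and *Nfkbiz*. In treated cells *Nfkbie* moved up to rank 3 at 7.77, above *Nfkb1* at 7.62 with no overlap on this length. *Tnfaip3* stood at 6.42, a full 1.00 above *Nfkb2*, and overlapping libraries were seen for *Rel* and *Nfkbib* and for *Nfkbiz* and *Relb*. The place of *Nfkb1* depends on the length used. Its annotated exons span 12061 bases in all but its longest coding transcript has 4117, and on the latter length *Nfkb1* had the highest per-length level of the 10 in control cells, at 9.31. On that length its mean in treated cells was 9.17, not apart from *Nfkbia* at 9.16, given SDs of 0.053 and 0.092. Both lay above *Nfkbie* at 8.09, so that the order of *Nfkb1* and *Nfkbie* in treated cells reverses with the length used.

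The wider pathway was described with 6 lists of 98 genes, of which 71 passed the limit on the mean. Of these, 46 (64.8%) passed the test, 29 higher and 17 lower with LY2090314. The median log2 difference of the 71 genes was 0.13, against 0.01 for all genes tested. Of all genes tested, 50.1% passed, 24.8% higher and 25.3% lower, and these shares are the background for each list that follows. Among 14 regulators related to the IκB proteins and A20, 12 were tested, with 4 higher and 4 lower. *Rnf11* (8.69 to 9.22), a partner of A20, and *Pdlim2* (8.74 to 9.16), a ligase that ends RelA activity, rose in mean rlog value. *N4bp1* (10.52 to 9.86), an inhibitor of NF-κB signalling that is cleaved on activation, and *Tnip2* (6.79 to 6.39), an A20-binding protein, fell. *Bcl3*, a nuclear IκB protein, had a mean of 1.20 in control and 1.19 in treated cells and was under the limit for testing. In the list of IKK, NIK, TAK1 and linear ubiquitin complexes, all 15 genes were tested, with 5 higher and 1 lower. *Ikbke* rose by 0.53, *Map3k7*, which encodes TAK1, by 0.47 and *Ikbkg*, which encodes the IKK scaffold NEMO, by 0.35 on the log2 scale, while *Rbck1*, a subunit of the linear ubiquitin ligase, fell by 0.33. Exons of *Ikbkg* share 418 bases with *G6pdx* on the other strand, and the strand setting of the quantification is not known. Those of *Ikbke* share 159 bases with *Gm28914* and 65 with *Gm28913* on the other strand, and those of *Btrc* share 235 with *Gm6807*. *Cd180*, *Irf1* and *Junb*, named below, also share exon bases with a gene on the other strand. Neither catalytic subunit of IKK passed, with *Chuk* at a log2 difference of 0.20 and *Ikbkb* at 0.09, nor did the genes for the IκB ligase adaptors, *Btrc* at 0.04 and *Fbxw11* at 0.03. Without treated library 15, *Chuk* passed (0.29, adjusted p = 0.040, limma), and without control library 3 its difference was 0.12 (adjusted p = 0.37, limma).

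Of 18 adaptors, 16 were tested, with 9 higher and 2 lower, against 24.8% and 25.3% of all genes tested. *Traf3*, which restrains the non-canonical pathway by keeping NIK low, fell by 0.84 on the log2 scale (adjusted p = 0.0035, limma), with treated libraries 14A and 14B at 9.03 and 9.01 and library 15 at 8.38. *Prkcb*, which encodes protein kinase Cβ of B cell receptor signalling, rose by 0.76, and *Birc3*, which encodes the ubiquitin ligase cIAP2, rose by 0.67. *Malt1* and *Bcl10*, whose products bind each other, rose by 0.53 and 0.28.

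Ligand genes of the pathway fell where they passed the test. Of 9 ligands, 4 were tested, 3 were lower and none was higher, against 25.3% and 24.8% of all genes tested. The median log2 difference of the 4 ligands was −1.08. *Lta*, which encodes lymphotoxin α, was at 9.07, 8.95 and 9.15 in control and 6.98, 6.95 and 7.04 in treated libraries, a log2 difference of −2.06 with a standard error of 0.080 (limma, adjusted p = 7.6e-07) or a 4.18-fold lower linear level. *Tnf* went from 6.61, 6.79 and 6.73 to 5.56, 5.45 and 5.26, a log2 difference of −1.28 with a standard error of 0.11 (limma, adjusted p = 4.1e-05). *Tnfsf11*, which encodes RANKL, fell by 0.88, and *Ltb*, which encodes lymphotoxin β, had a log2 difference of −0.09 and did not pass. Both *Tnf* and *Lta* are also known as targets of NF-κB, and their direction was the opposite of that of *Tnfaip3* and *Nfkbia*. Of 16 receptors, 9 were tested, with 2 higher and 4 lower, against 24.8% and 25.3% of all genes tested. *Tlr9*, the sensor of unmethylated DNA, fell by 1.56 and *Tnfrsf13c*, the BAFF receptor gene, fell by 1.53 on the log2 scale (adjusted p = 1.0e-05 and 1.2e-06, limma), and *Cd180* fell by 0.67. *Tlr2* rose by 0.71. *Cd40* and *Tnfrsf1a* were under the limit for testing, with control means of 2.15 and −1.51.

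Among 26 genes known as targets of NF-κB, 15 were tested, with 9 higher (24.8% of all genes tested were) and 3 lower (25.3% of all were) and a median log2 difference of 0.34. *Ccr7*, a chemokine receptor gene, rose from a mean rlog value of 7.47 to 9.01, *Irf1* from 9.15 to 10.58, *Irf4*, a regulator of B cell maturation, from 12.75 to 14.16 and the adhesion receptor gene *Cd44* from 10.40 to 11.25. Their adjusted p-values (limma) were at most 5.9e-05. The 3 that fell were *Gadd45b* (4.81 to 4.28), *Sod2* (10.32 to 9.91) and *Junb* (8.77 to 8.46), which were named after their values were seen. Inflammatory targets such as *Il6*, *Ccl5* and *Vcam1* were listed at 0 in all 6 libraries. Many of these genes have other regulators, and NF-κB activity itself was not measured.

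**Figure D4:**
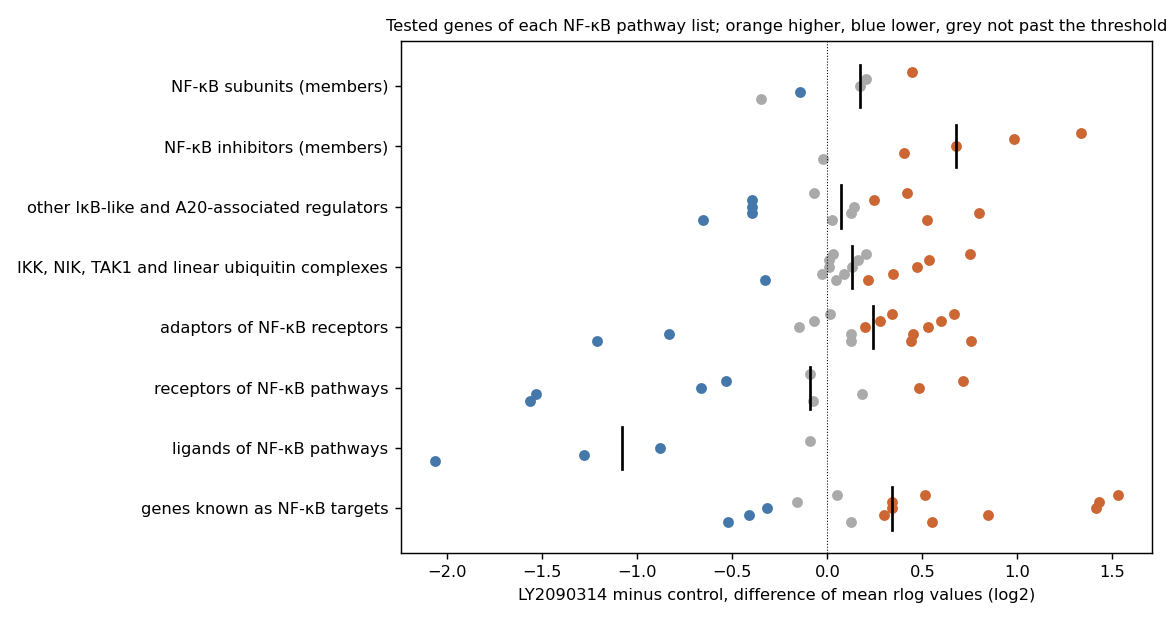
Differences of mean rlog values (LY2090314 minus control, log2, horizontal axis) of every tested gene in the NF-κB gene lists; each dot is a gene, orange is higher, blue is lower, grey did not pass, and the vertical bar is the median of the list. The median is highest for the inhibitors (0.68) and lowest for the ligands (−1.08).

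The genes whose values were most like those of *Tnfaip3* over the 6 libraries were *Slc6a19* (Pearson r = 0.9999), *Ptk2b* (r = 0.9998) and *Il2ra* (r = 0.9997). Their log2 differences were 2.48, 0.80 and 2.75. Such values follow mainly from 2 separate groups of libraries, each uniform, and are given as a description.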

How the data were processed

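Polyadenylated RNA was sequenced in 12 samples of 4 groups. Per the labels and the study's methods, stranded libraries were sequenced as paired ends, transcripts were quantified with Salmon 1.4.0, reads were aligned with STAR to GRCm38 and analysis used DESeq2 1.30.1. The authors deposited 1 table of log2 values named as rlog. Which samples and options entered that transformation is not given in the sources used here. Of its 12 columns, 6 were matched to a group by name. The other 6 combine Cre and LY in both spellings and were not used.

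Genes with a mean of at least 3 over the 6 libraries were kept (11536 of 41444) and compared with limma 3.58.1 in R 4.3.3 (empirical Bayes, variance trended on the mean). P-values were adjusted by Benjamini-Hochberg over the genes tested and a threshold of 0.05. The count model that the authors used could not be fitted without counts. The study describes the replicates as mice, but the labels do not tie libraries to mice, so p-values measure the spread between these libraries. The procedure was checked on simulated data with independent libraries and far fewer changed genes than were called here. That check does not cover related libraries or changes in so large a share of genes. Symbols matched 41157 identifiers, positions and exon lengths came from GENCODE vM21 (GRCm38) and promoters from RefSeq. The genes and lists were chosen with earlier results of these data known. Named genes outside the 10 are, per list, up to 4 with the largest differences among those that passed with no overlap between groups, and the 3 most correlated with the gene that changed most; other genes of the lists were named for their role. The values of 1 gene that this rule names are not reported here.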

Additional observations from a re-analysis of the deposited data

How the results depend on the processing

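The number of NF-κB genes past the threshold (6) was 3 at a threshold of 0.01 and with libraries 14A and 14B averaged, 1 with a log2 difference of at least 1 (*Tnfaip3*), 2 with no limit on the mean (*Tnfaip3* and *Nfkbie*), where 21786 of 41444 genes are at 0 in every library and the variance model is unreliable, and 3 to 7 with 1 library left out. Without control library 3 and treated library 15 together, chosen after seeing the data, it was 8. The limit of 1 left 693 of 5778 genes and 8 of 46 genes of the pathway lists. With 1 library left out these counts lay between 4741 and 6225 and between 39 and 47. Quantile normalization gave 2562 higher and 3345 lower genes, against 2860 and 2918. The balance shift (0.61) was 0.29 without *Nfkbiz* and *Tnfaip3* and 0.55 to 0.69 with 1 library left out. *Nfkb1* ranked number 3 per length and number 1 by coding transcript in control cells. *Nfkbib* (−0.02) lay between −0.082 and 0.040 with 1 library left out, with a reversed sign without control library 3, and at 0.018 without that library and treated library 15. *Btrc* (0.04) reversed to −0.016 with quantile normalization and −0.040 without control library 3 and treated library 15, and ranged from −0.026 (without 15) to 0.13 with 1 library left out. *Ltb* (−0.09) ranged from −0.17 to 0.011 (without 14A). *Tnfaip3* and *Relb* were the 2 of the 10 genes with the same call in all 16 settings. No paired analysis was possible because the treated columns are numbered 14A, 14B and 15, which match no control number. Depth is unknown, so what it limits was not assessed.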

Other observations

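Control library 3 and treated library 15 were the lowest of their groups for *Nfkbiz* and for *Rel*. The same was seen for *Zc3h12a*, which encodes the RNase Regnase-1, at 6.43 in control library 3 and 6.77 in library 15 against 7.71 and 7.90 in libraries 14A and 14B, and for *Map3k14*, which encodes NIK, at 5.20 and 5.71 against 6.53 and 6.62. These genes were chosen after their values were seen, and the labels do not say whether the libraries share an origin. Both genes passed the threshold as higher with LY2090314 (log2 differences of 0.80 and 0.75, adjusted p = 0.044 and 0.039, limma) with overlapping groups. Each call was lost without any one library other than 15, with adjusted p-values (limma) from 0.062 to 0.13 for *Zc3h12a* and from 0.051 to 0.12 for *Map3k14*. Without library 15 the log2 differences were 1.14 and 1.04 (adjusted p = 0.00058 and 0.0021, limma). With no library left out, the call of *Zc3h12a* was also lost without the mean-variance trend (adjusted p = 0.054, limma). The same held with a robust empirical Bayes step (0.053) and with quantile normalization (0.053). The call of *Map3k14* was kept in these settings. Exons of *Map3k14* share 135 bases with *1700028N14Rik* on the same strand.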
